A study of Mus musculus and Homo sapiens with 20 samples.

Results

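Phase II conjugation enzymes attach a polar group to drugs, hormones, bilirubin and bile acids so that the liver can excrete them. UDP-glucuronosyltransferases (Ugt genes) add glucuronic acid, cytosolic sulfotransferases (Sult genes) add sulfate from the donor PAPS, and glutathione transferases (Gst genes) couple glutathione to electrophiles. Several of these genes sit in tandem arrays of similar copies, and the Ugt1a genes are a special case in which alternative first exons are spliced to one shared set of downstream exons. The aryl hydrocarbon receptor AhR binds DNA with its partner ARNT at sites with the core GCGTG, and it is known as one regulator of conjugation genes beside NRF2 (Nfe2l2), PXR (Nr1i2), CAR (Nr1i3) and HNF4A.

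The chromatin regions described here are ATAC-seq peaks of mouse hepatocytes whose nearest protein-coding gene body, within 50 kb, is a Ugt1, Ugt2, Ugt3, Sult or Gst gene of the mu, pi, theta, omega, zeta or kappa class. ATAC-seq counts insertions of the Tn5 transposase, which enters open chromatin more readily than closed chromatin. The alpha-class Gsta genes are outside the rule. Overlapping peaks of the 12 libraries merged into 642948 regions, of which 899 (0.14%) met the rule, and these belonged to 59 of 60 genes with a matching symbol (Ugt2a2 had none). A peak was listed in all 12 libraries at 199 of the 899 regions, and these 199, near 48 genes, were tested among 101575 regions.

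The study set vitamin B2 deficiency against a control condition in hepatocytes labelled AhR_flox. All 4 groups share this floxed allele, the hepatocyte label and the label 4_weeks, and each has 3 libraries: control with Ad_Cont, B2_minus with Ad_Cont, control with Ad_Cre and B2_minus with Ad_Cre. The labels give no age or sex, do not spell out Ad or name a promoter for Cre, and do not say whether replicates are separate animals or cultures, so p-values measure the spread between these libraries, which may be technical. The libraries listed 200698 to 281141 peaks and 3897632 to 5557678 tags, with a lowest listed count of 6 to 8 tags per peak. Among 32 regions in the Ahr gene body, 7 were tested and 0 differed between Ad_Cre and Ad_Cont by edgeR (1 at an unadjusted p under 0.05 in each diet), while 1 of the untested was listed in 5 of 6 Ad_Cont and 1 of 6 Ad_Cre libraries. The floxed part of Ahr is not given in the sources used here, and a peak outside it checks nothing. Promoter windows of 6 hepatocyte markers, among them Alb, Apoa1 and Tat, were listed in all 12 libraries. So were 2 of 4 stellate, 2 of 4 endothelial and 1 of 3 cholangiocyte marker promoters. Those of the Kupffer cell markers Clec4f, Laptm5, Cd5l and Marco were listed in none, and Adgre1 and Csf1r had no window.

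Sequences are shown for 4 of the 7 promoters whose start-site region was called by edgeR in the averaged diet comparison given below. The call was in the higher direction at Ugt2b35, Gstm2 and Sult2a8 and in the lower direction at Sult2b1, and it depends on the variance model, as given below. Each line gives the 250 bases before the annotated start, 5′ to 3′ on the gene's strand, from RefSeq on GRCm38.p6, the assembly of mm10. They lie at chr5:87000610-87000859 (plus strand), chr3:107986421-107986670 (minus strand), chr7:14438552-14438801 (minus strand) and chr7:45742479-45742728 (minus strand). Capitals mark the letters GCGTG, which were found in the Sult2b1 window alone among these 4.
Ugt2b35: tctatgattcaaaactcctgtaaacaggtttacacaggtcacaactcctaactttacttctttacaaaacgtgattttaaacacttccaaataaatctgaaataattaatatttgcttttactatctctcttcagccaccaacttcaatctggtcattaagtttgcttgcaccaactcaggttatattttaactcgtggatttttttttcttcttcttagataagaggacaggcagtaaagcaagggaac
Gstm2: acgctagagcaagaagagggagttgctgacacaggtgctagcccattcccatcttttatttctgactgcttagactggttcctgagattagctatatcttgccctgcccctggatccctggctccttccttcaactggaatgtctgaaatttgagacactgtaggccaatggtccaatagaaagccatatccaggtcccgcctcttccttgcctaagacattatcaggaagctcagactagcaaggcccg
Sult2a8: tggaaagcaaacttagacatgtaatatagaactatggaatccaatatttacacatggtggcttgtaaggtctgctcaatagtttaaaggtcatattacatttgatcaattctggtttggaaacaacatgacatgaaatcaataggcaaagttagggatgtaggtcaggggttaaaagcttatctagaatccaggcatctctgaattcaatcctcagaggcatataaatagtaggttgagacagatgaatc
Sult2b1: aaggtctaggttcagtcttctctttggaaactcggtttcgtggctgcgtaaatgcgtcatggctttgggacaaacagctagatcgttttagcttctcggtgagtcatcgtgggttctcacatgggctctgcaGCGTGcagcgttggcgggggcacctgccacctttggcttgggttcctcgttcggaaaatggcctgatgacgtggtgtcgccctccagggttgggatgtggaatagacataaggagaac

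Letters were searched on both strands of windows of 300 bases (250 before and 50 after the start). A window was given for 53 of the 60 genes, 64 windows in all. GCGTG occurred in 11 of 64 (17.2%) against 32.4% of 32851 windows of all genes, and belonged to Gstm1, Gstm5, Gstp1, Gstp3, Sult1b1, Sult1d1, Sult2b1, Ugt1a5 and Ugt1a8. The antioxidant response core TGACNNNGC, the letters bound by NRF2 with small MAF proteins, occurred in 2 of 64 (3.12%), at Gstm5 and Gstm7, against 12.4%. The HNF4A core CAAAGTCCA was found at Sult1b1 (1.56% against 0.475%), and the HNF1 motif in 0 windows, against 0.00913% of all.

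Averaged over both Ad arms, 22 of the 199 conjugation gene regions (11.1%) differed between B2_minus and control, 17 higher (8.54%) and 5 lower (2.51%). Over all 101575 regions the shares were 5.78% in either direction, 2.45% higher and 3.33% lower. The higher regions lay near Ugt2b34, Ugt2b1, Ugt2b35, Ugt2b5, Sult1d1, Sult1e1, Sult2a7, Sult2a8, Gstm2, Gstm3, Gsto2 and Gstz1, and the lower ones near Sult2a1, Sult2b1, Gsto1, Gstt2 and the shared part of the Ugt1a cluster. The median log2 fold change (B2_minus over control) was 0.09 over the 199 regions and 0.0049 over all regions, and 145 of 199 (72.9%) were positive against 51.1% of all. Values are peak tag counts scaled to the mean library, and calls are at an adjusted p under 0.05 by edgeR's quasi-likelihood test with Benjamini-Hochberg adjustment over all 101575 regions.

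These calls rest on letting the fitted variance fall below Poisson, because replicates varied less than that. Independent tags would vary at least as much as Poisson, so the deposited whole numbers may not be plain counts of independent tags, which the sources used here do not settle, and the standard errors and adjusted p-values hold only for the values as deposited. With the variance bounded at Poisson, edgeR called 3 of the 199 regions (near Gstm3, Gsto1 and Ugt2b34), beside 996 of all 101575. None of these 3 overlaps a promoter window, so no start-site call was kept in that fit. DESeq2 called 0, beside 45 of all regions, with 23 members at an unadjusted p under 0.05, beside 5454 of all regions. Scaling by the total of listed tags in place of TMM moved the median of all regions by 0.10 on the log2 scale and gave 37 higher and 4 lower member regions (90.2% higher against 77.3% with TMM), beside 11.6% of all regions called, 9.6% higher and 1.97% lower. When regions listed in 3 or more libraries were fitted, with unlisted values set to a library's lowest count, 485 member regions were tested. Of these, 17 were higher and 1 lower, beside 3275 higher and 889 lower of all 252554 regions in that fit. The 5 lower calls named above were lost (edgeR adjusted p from 0.0712 to 0.18).

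**Figure D1:**
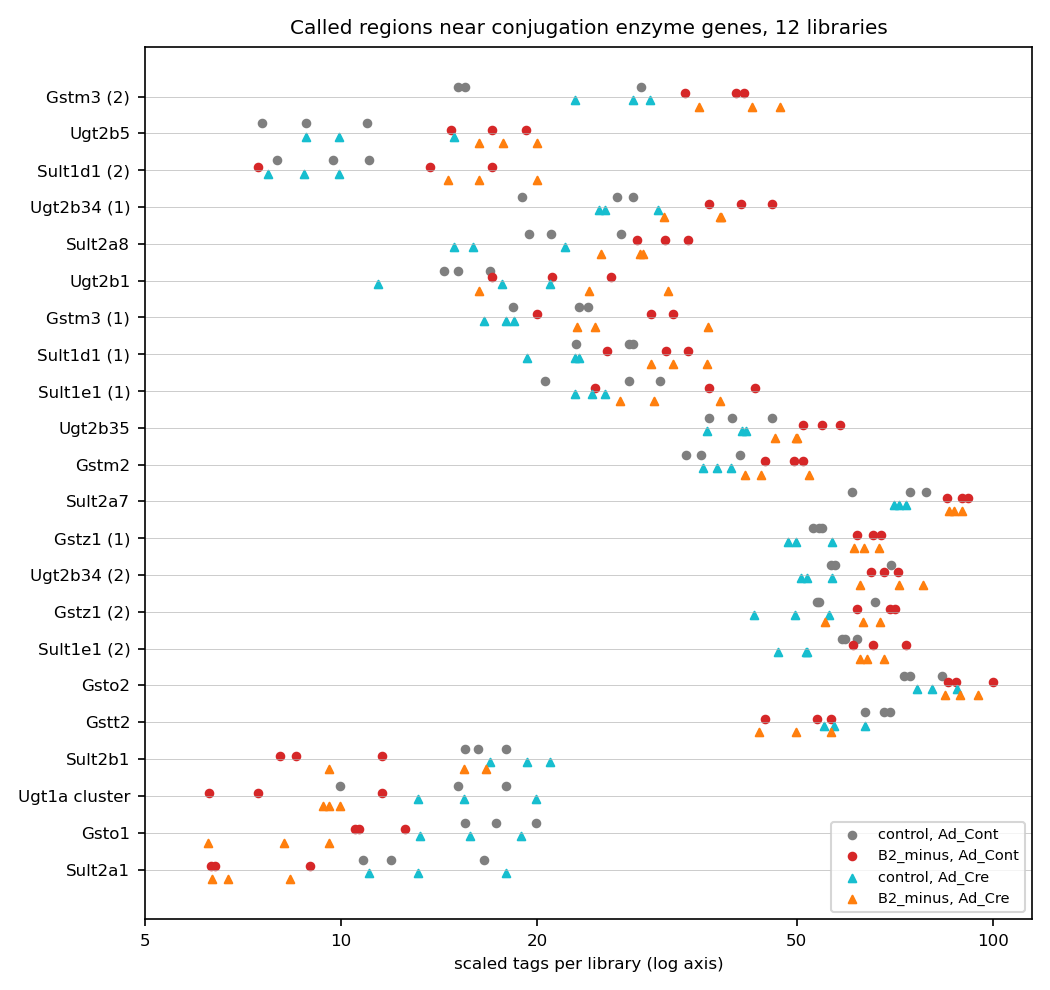
Scaled tags (x axis, log scale) in each of the 12 libraries for the 22 regions called in the averaged diet comparison, ordered by log2 fold change; points are single libraries, coloured by group, and regions of one gene are numbered along the chromosome. The upstream Gstm3 region sits at 33.7 to 47.2 in B2_minus and 15.1 to 29.8 in control libraries, and the Sult2a1 region at 6.31 to 8.96 and 10.8 to 17.9.

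As the plot of scaled tags by library shows, the 6 B2_minus and 6 control libraries did not overlap at several called regions. Over the 199 tested regions, 7 were higher in B2_minus without overlap (3.52%, against 0.898% of all regions) and 2 were lower (1.01%, against 1.33%). The 7 were near Gstm3, Gstm2, Gstz1, Sult2a7, Ugt2b34, Ugt2b35 and Gstp2, and the 2 near Gsto1 and Sult2a1. The Gstp2 region did not pass the test (log2 fold change 0.27, edgeR adjusted p = 0.245), and the other 8 did.

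Among the glucuronosyltransferases, the Ugt2b genes, whose enzymes conjugate steroids, bile acids and drugs, had the most calls. Of 34 tested Ugt2b regions, 5 rose, 0 fell and 30 were positive, with a median log2 fold change of 0.17. Over all regions, 2.45% were higher and 3.33% lower. The region 3635 bp outside the body of Ugt2b34 (chr5:86885814-86886135) held 26.5, 18.9 and 28.1 scaled tags in control Ad_Cont libraries and 36.7, 45.8 and 41.0 in B2_minus Ad_Cont libraries. In the Ad_Cre libraries it held 25.4, 24.9 and 30.7 in control and 31.3, 38.3 and 38.1 in B2_minus. The lowest B2_minus library was above the highest control library, and the log2 fold change was 0.58 (SE 0.117, edgeR adjusted p = 0.000465).

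The start sites of both Ugt2b34 and Ugt2b35 also rose. At the Ugt2b34 start (chr5:86906832-86907114), control libraries ranged from 50.8 to 69.7 (median 56.5) and B2_minus libraries from 62.6 to 78.2 (median 69.8), so the diets overlapped, with a log2 fold change of 0.28 (SE 0.0737, edgeR adjusted p = 0.00934). At the Ugt2b35 start (chr5:87000729-87000995), whose sequence is printed above, the Ad_Cont libraries held 39.8, 45.8 and 36.7 in control and 58.2, 51.2 and 54.7 in B2_minus. The Ad_Cre libraries held 36.4, 41.8 and 41.2 in control and 50.1, 49.8 and 46.2 in B2_minus, and the diets did not overlap (log2 fold change 0.35, SE 0.0899, edgeR adjusted p = 0.00706).

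A region 3569 bp outside Ugt2b5 (chr5:87120641-87121377) had a log2 fold change of 0.76 (SE 0.178, edgeR adjusted p = 0.00278), and one 15622 bp upstream of the start of Ugt2b1 (chr5:86942125-86942502) 0.52 (adjusted p = 0.0388). Control libraries of the Ugt2b5 region ranged from 7.56 to 14.9 and B2_minus libraries from 14.7 to 19.9, so the diets overlapped by 1 control library. Start-site regions did not pass the test at Ugt2b1 (0.03, adjusted p = 0.948) or Ugt2b36 (0.04, adjusted p = 0.883). Ugt2b36, Ugt2b37 and Ugt2b38 had 12 tested regions in all and no call. The copies are similar in sequence, so reads may have been placed on the wrong copy and the assignment to single Ugt2b genes is uncertain.

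The Ugt1a cluster, which includes Ugt1a1, the bilirubin-conjugating enzyme, had 111 regions, 28 tested, with 0 higher and 1 lower, beside 2.45% and 3.33% of all regions. Its strongest region, at the Ugt1a1 start, averaged 89.5 ± 5.51 scaled tags in control (SD, n = 6) and 94.9 ± 8.48 in B2_minus (SD, n = 6), a log2 fold change of 0.08 (edgeR adjusted p = 0.496). The lower region (chr1:88216583-88218003) lies inside 9 overlapping Ugt1a genes, 4624 bp downstream of the Ugt1a1 start. Control libraries ranged from 9.95 to 19.9 (median 15.3) and B2_minus libraries from 6.27 to 11.6 (median 9.48), near the lowest listed counts, with a log2 fold change of -0.76 (SE 0.184, edgeR adjusted p = 0.00432). These values are the highest peak of the merged region in each library. With its peaks summed, the log2 fold change was -0.37 and did not pass the test (edgeR adjusted p = 0.548). Upstream of this lower region, inside the bodies of 7 Ugt1a genes (chr1:88194544-88195068), a weak peak of 6 to 10 tags was listed in 6 of 6 B2_minus and 0 of 6 control libraries. That pattern occurred at 0.007% of all 642948 regions and at this 1 member region, and the reverse pattern at 0 member regions (0.0118% of all). An unlisted peak was below the peak caller's threshold and is not a measured 0.

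The Ugt3a genes, whose enzymes use other UDP sugars, had 5 tested regions and the Ugt2a genes 6, with no call. All 6 of the Ugt2a regions were positive. The strongest region of Ugt3a1 and Ugt3a2 lay outside the body of Ugt3a1 with a mean of 21.8 scaled tags, and its log2 fold change was -0.30 (edgeR adjusted p = 0.235).

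**Figure D2:**
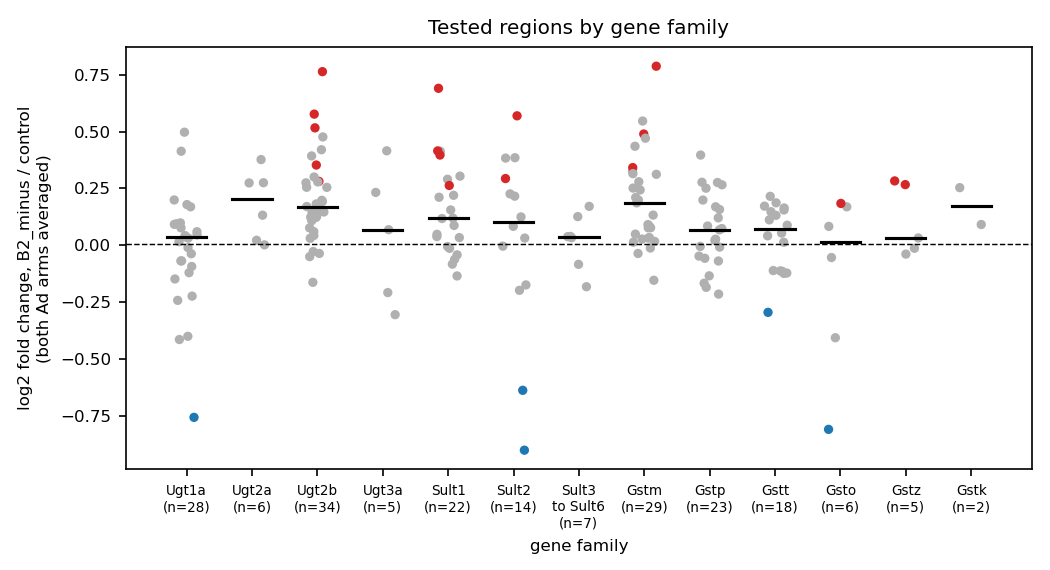
Log2 fold change of B2_minus over control, both Ad arms averaged (y axis), for the 199 tested regions by gene family (x axis, n of regions in brackets); red points were called higher, blue points lower and grey points neither, black bars are family medians and the dashed line is the median of all 101575 regions. Gstm and Ugt2b have 26 of 29 and 30 of 34 regions above 0.

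Sulfotransferase regions were called in both directions, as the plot of fold changes by family shows. Of 22 tested Sult1 regions 4 rose and 0 fell, and of 14 tested Sult2 regions 2 rose and 2 fell. Another 7 tested regions, of Sult3 to Sult6 genes, had no call. The shares of all regions were 2.45% higher and 3.33% lower. Within Sult1d1, a sulfotransferase of catecholamine-type amines, the region 1370 bp downstream of the start (chr5:87567283-87567636) held 11.1, 7.96 and 9.72 scaled tags in control and 17, 7.46 and 13.7 in B2_minus libraries with Ad_Cont. With Ad_Cre it held 7.72, 9.94 and 8.76 in control and 14.6, 16.3 and 19.9 in B2_minus. The diets were apart with Ad_Cre and overlapped with Ad_Cont, and the averaged log2 fold change was 0.69 (SE 0.184, edgeR adjusted p = 0.011). Another Sult1d1 region rose by 0.42 on the log2 scale (adjusted p = 0.0321), while the Sult1d1 start did not pass the test (-0.01, adjusted p = 0.977).

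Near Sult1e1, the estrogen sulfotransferase, a region 9434 bp upstream of the start (chr5:87601045-87601298) rose from 55.0 ± 5.83 (SD, n = 6) to 65.8 ± 4.50 scaled tags (SD, n = 6) (log2 fold change 0.26, SE 0.0748, edgeR adjusted p = 0.0185). A region between Sult1d1 and Sult1e1, 2847 bp outside the latter, rose by 0.40 (adjusted p = 0.0411). Sult1b1, which conjugates thyroid hormones and phenols, had a start-site region at 52.1 ± 4.19 (SD, n = 6) in control and 60.3 ± 3.98 (SD, n = 6) in B2_minus that missed the threshold (0.21, edgeR adjusted p = 0.0908).

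The Sult2a enzymes conjugate bile acids and hydroxysteroids. A region 32309 bp outside Sult2a7 (chr7:14525332-14525633) was the strongest sulfotransferase region and held 60.8, 74.7 and 78.8 scaled tags in control and 85.1, 89.5 and 91.5 in B2_minus libraries with Ad_Cont. With Ad_Cre it held 70.6, 73.6 and 71.8 in control and 85.5, 87.2 and 89.8 in B2_minus. Every B2_minus library lay above every control library (log2 fold change 0.29, SE 0.0627, edgeR adjusted p = 0.000939). At the start of Sult2a8 (chr7:14438487-14438876), a hepatic bile acid sulfotransferase, control libraries ranged from 14.9 to 26.9 (median 20.2) and B2_minus libraries from 25 to 34.1 (median 28.9), a log2 fold change of 0.57 (SE 0.139, edgeR adjusted p = 0.00465).

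A region inside Sult2a1 (chr7:13813985-13814402), the hydroxysteroid sulfotransferase, went the other way. It held 16.6, 11.9 and 10.8 scaled tags in control and 8.96, 6.40 and 6.31 in B2_minus libraries with Ad_Cont. In the Ad_Cre arm the values were 11, 17.9 and 13.1 in control and 8.34, 6.70 and 6.35 in B2_minus. The diets did not overlap, the B2_minus values were near the lowest listed counts, and the log2 fold change was -0.90 (SE 0.185, edgeR adjusted p = 0.000533). The Sult2a copies are near-identical in parts, so the assignment to Sult2a1, Sult2a7 or Sult2a8 is uncertain. Sult2a2 to Sult2a6 had regions but none tested.

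Sult2b1, which sulfates cholesterol and pregnenolone, has 2 annotated starts in the table. The region at the inner start (chr7:45742287-45742816), printed above with its GCGTG letters, held 15.5, 17.9 and 16.2 scaled tags in control and 8.06, 8.53 and 11.6 in B2_minus libraries with Ad_Cont. With Ad_Cre it held 21.0, 16.9 and 19.3 in control and 16.7, 9.58 and 15.4 in B2_minus, and over all libraries the diets overlapped (log2 fold change -0.64, SE 0.177, edgeR adjusted p = 0.0151). The outer start was stronger and did not pass the test, with 47.9 ± 5.59 in control (SD, n = 6), 50.5 ± 3.11 in B2_minus (SD, n = 6) and a log2 fold change of 0.08 (edgeR adjusted p = 0.651). The difference between the starts was not tested.

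Among the glutathione transferases, the mu class (Gstm), cytosolic enzymes that conjugate electrophiles, had 3 higher and 0 lower of 29 tested regions, beside 2.45% and 3.33% of all regions. Of the 29, 26 were positive, with a median log2 fold change of 0.19. The region 5116 bp upstream of the Gstm3 start (chr3:107974290-107974587) had the lowest p of all member regions. It held 15.5, 28.9 and 15.1 scaled tags in control and 40.3, 41.6 and 33.7 in B2_minus libraries with Ad_Cont. In the Ad_Cre arm the values were 29.8, 22.9 and 28.0 in control and 42.8, 35.4 and 47.2 in B2_minus. The diets did not overlap, and the log2 fold change was 0.79 (SE 0.122, edgeR adjusted p = 2.88e-06).

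The Gstm2 start (chr3:107986000-107986608), whose sequence is printed above, held 40.9, 33.8 and 35.6 scaled tags in control and 51.1, 44.8 and 49.4 in B2_minus libraries with Ad_Cont. With Ad_Cre it held 39.7, 37.8 and 35.9 in control and 52.2, 44.1 and 41.7 in B2_minus, again without overlap (log2 fold change 0.34, SE 0.0956, edgeR adjusted p = 0.0162). A region inside Gstm3 (chr3:107964550-107965353) rose by 0.49 on the log2 scale (adjusted p = 0.0249), and one 158 bp downstream of the Gstm3 start did not pass the test (0.20, adjusted p = 0.129). The start-site region with the highest mean scaled tags of all members, that of Gstm1, held 104 ± 6.0 in control (SD, n = 6) and 106 ± 3.44 in B2_minus (SD, n = 6), a log2 fold change of 0.02 (edgeR adjusted p = 0.900). Starts of Gstm4, Gstm5, Gstm6 and Gstm7 had log2 fold changes from -0.01 to 0.09 and did not pass the test. The mu genes are similar copies, so single-gene assignment is uncertain here too.

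**Figure D3:**
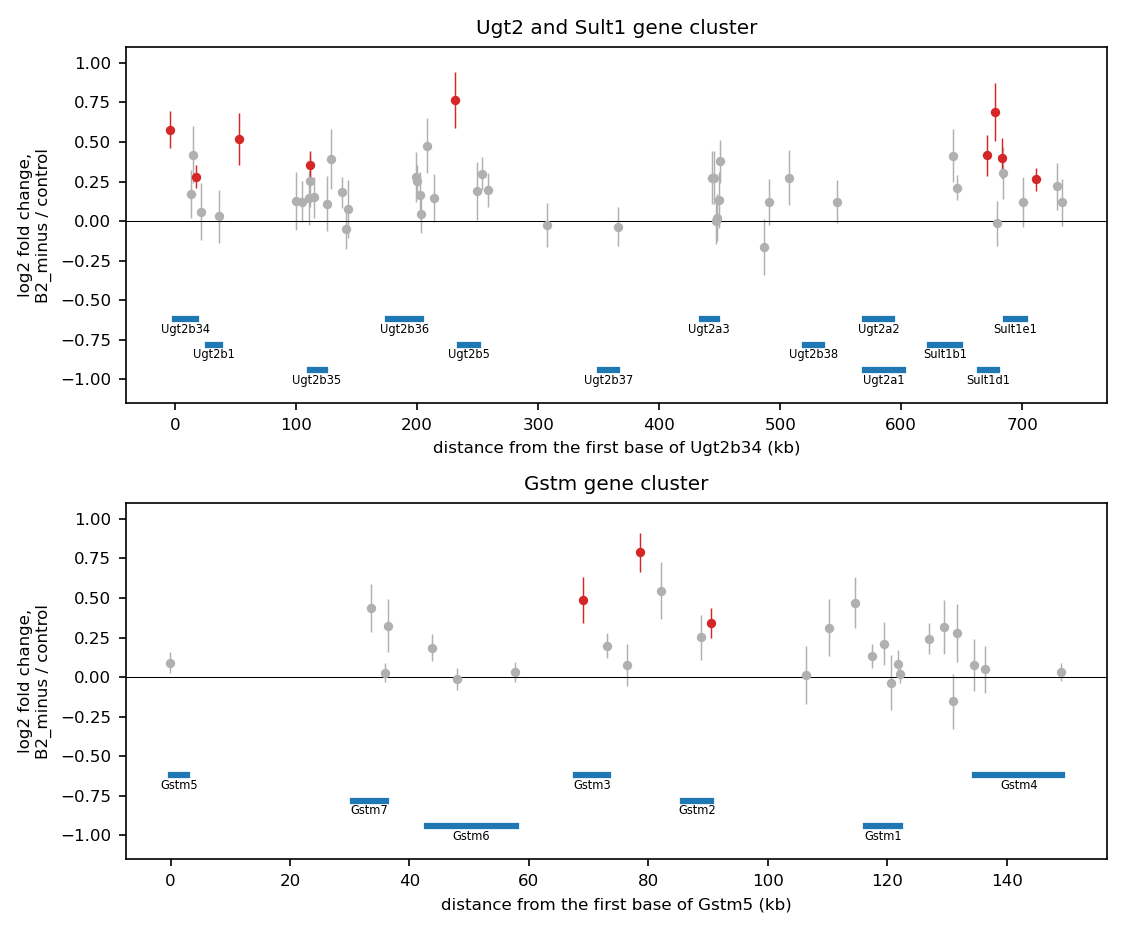
Log2 fold change of B2_minus over control (y axis, mean of both Ad arms, bars are standard errors) against distance along the chromosome in kb (x axis) for tested regions of the Ugt2 and Sult1 cluster (top) and the Gstm cluster (bottom); red points passed the test, grey points did not, and blue bars are gene bodies. In the top panel 46 of 51 regions lie above 0 and in the bottom panel 26 of 29.

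In the plot by distance, the higher regions of the chromosome 5 cluster run from near Ugt2b34 to near Sult1e1, and the 3 of the Gstm cluster lie together at Gstm3 and Gstm2. The Ugt2b, Ugt2a and Sult1 genes of chromosome 5 span 702 kb, with 9 of 51 tested regions higher (17.6%, against 2.45% of all regions). Of these 51 regions 0 were lower (3.33% of all regions), and their median log2 fold change was 0.19. The Gstm genes of chromosome 3 span 149 kb, with 3 of 29 tested regions higher (10.3%) and 0 lower. Neighbouring regions share a chromosome segment and are not independent of each other. With listed-tag scaling the counts were 16 higher and 0 lower on chromosome 5 and 10 higher and 0 lower on chromosome 3. That scaling shifted all regions upward and called 9.6% of them higher and 1.97% lower.

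The omega-class genes Gsto1 and Gsto2, thioltransferases that reduce dehydroascorbate, are neighbours on chromosome 19 and had calls of opposite sign. The region 740 bp upstream of the Gsto1 start (chr19:47853941-47854233) held 15.5, 19.9 and 17.3 scaled tags in control and 12.5, 10.7 and 10.5 in B2_minus libraries with Ad_Cont. In the Ad_Cre arm the values were 13.2, 18.9 and 15.8 in control and 6.26, 9.58 and 8.16 in B2_minus, without overlap (log2 fold change -0.81, SE 0.179, edgeR adjusted p = 0.00148). The B2_minus values with Ad_Cre were near the lowest listed counts, and the first, at 6 tags, equalled the lowest of its library. The Gsto1 start itself did not pass the test (0.08, adjusted p = 0.594). The Gsto2 start rose from 79.4 ± 5.85 (SD, n = 6) to 90.2 ± 6.01 (SD, n = 6), with an edgeR adjusted p of 0.0489 that was over the threshold with DESeq2 size factors and in 8 of 12 fits that each left out 1 library.

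Gstz1, the maleylacetoacetate isomerase of tyrosine breakdown, also had a call at its inner start, in the higher direction. The region at its inner start (chr12:87157426-87157687) held 54.1, 54.8 and 52.9 scaled tags in control and 65.4, 61.8 and 67.3 in B2_minus libraries with Ad_Cont. In the Ad_Cre arm the values were 48.5, 56.7 and 49.9 in control and 66.8, 61.3 and 63.5 in B2_minus, without overlap (log2 fold change 0.28, SE 0.0760, edgeR adjusted p = 0.0115). A region 582 bp downstream of that start rose by 0.27 (adjusted p = 0.0212). The outer start, at 51.2 ± 6.07 in control (SD, n = 6) and 51.9 ± 6.81 in B2_minus (SD, n = 6), did not pass the test (0.03, edgeR adjusted p = 0.879). The strongest Gstz1 region, 341 bp downstream of the outer start and tied with Pomt2, averaged 94.2 scaled tags. It did not pass the test either (-0.04, edgeR adjusted p = 0.765), and the difference between the Gstz1 starts was not tested.

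In the theta class, which conjugates small halogenated compounds, 1 of 18 tested regions fell and 0 rose, beside 3.33% and 2.45% of all regions. This region, 3005 bp outside Gstt2 (chr10:75828527-75828837), averaged 62.8 ± 5.80 in control (SD, n = 6) and 50.8 ± 5.63 in B2_minus (SD, n = 6), a log2 fold change of -0.29 (edgeR adjusted p = 0.0114). The theta count turned to 2 higher and 0 lower with listed-tag scaling, which called 9.6% of all regions higher and 1.97% lower. The pi class had 23 tested regions without a call, among them the Gstp3 start, one of the strongest member regions at 91.6 ± 7.05 in control (SD, n = 6) and 96.2 ± 5.44 in B2_minus (SD, n = 6). Gstk1, the mitochondrial and peroxisomal kappa enzyme, had 2 tested regions and no call.

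Start sites took a larger share of the called member regions than of the others. Of the 22 called regions, 7 overlapped a promoter window (31.8%), against 25 of 177 uncalled ones (14.1%). Over all tested regions the order was the reverse, with 7.17% of the higher, 7.66% of the lower and 12.3% of the uncalled regions at a promoter window. Of 32 tested member regions at a promoter, 6 were higher (18.8%, against 1.46% of 12188 promoter regions of all genes) and 1 lower (3.12%, against 2.13%). These shares are counts over regions and carry no test. Regions inside a gene body were 63.3% of the tested members and 63.8% of all tested regions.

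Within single Ad arms fewer regions passed. With Ad_Cont, 2 of 199 were higher and 0 lower (1.01%, against 1.04% of all regions called, 0.423% higher and 0.618% lower): the upstream Gstm3 region (0.94, edgeR adjusted p = 0.00212) and the one outside Ugt2b34 (0.75, adjusted p = 0.00933). With Ad_Cre, 3 were higher and 2 lower (2.51%, against 1.13%, 0.354% higher and 0.774% lower): the same Gstm3 region (0.64, edgeR adjusted p = 0.0253), the Ugt2b34 start (0.41, 0.0253) and the Sult1d1 region (0.94, 0.0327), and the regions of Gsto1 (-0.98, 0.0334) and Sult2a1 (-0.98, 0.03). With listed-tag scaling the Ad_Cre count was 20 higher and 2 lower, beside 4.49% of all regions called (4.01% higher and 0.475% lower). The count with Ad_Cre fell to 0 when the third control Ad_Cre library was left out and to 1 without the second control Ad_Cre library or any 1 of the B2_minus Ad_Cre libraries.

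**Figure D4:**
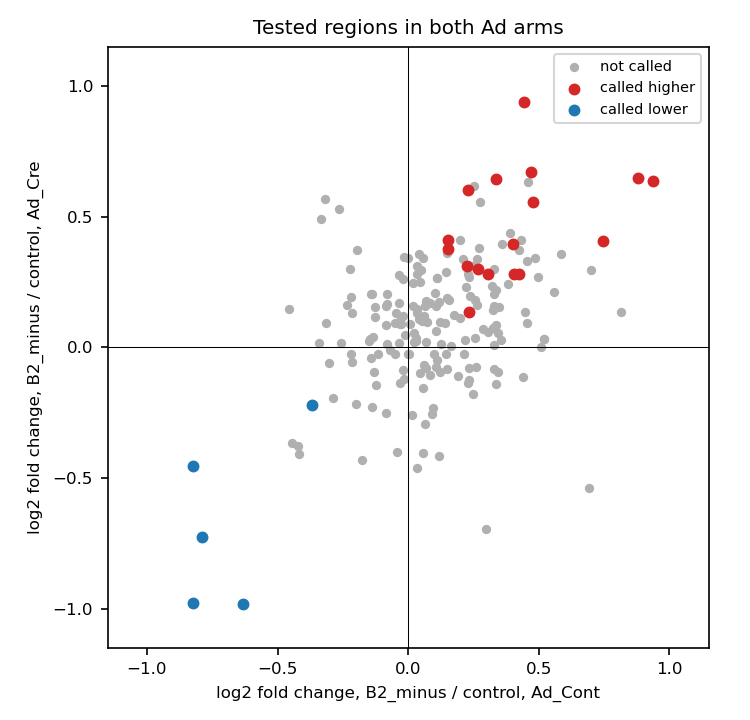
Log2 fold change of B2_minus over control with Ad_Cont (x axis) and with Ad_Cre (y axis) for the 199 tested regions; red and blue points were called higher and lower in the averaged comparison and grey points were not. All 22 called regions have the same sign in both arms, which the averaging favours.

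The arms share no library. Over the 199 regions the sign was the same in both arms at 130 (65.3%), 103 of them higher in both (51.8%) and 27 lower in both, against 62.3% and 32.0% of all regions. The interaction of diet and Ad arm called 0 of the 199 regions by edgeR and 0 of all regions (0%), and limma and DESeq2 also called 0. By edgeR, 10 members had an unadjusted interaction p under 0.05 (5.03%, against 5.14% of all regions). Ad_Cre against Ad_Cont called 0 member regions in control (0.00591% of all regions) and 0 in B2_minus (0.00197%), with 0 by limma and DESeq2 in both. At an unadjusted edgeR p under 0.05 there were 18 members in each diet (9.05%). The shares of all regions were 7.82% in control and 7.29% in B2_minus. The smallest adjusted p among members was 0.304 in control and 0.413 in B2_minus. No Ad difference was detected at conjugation gene regions, which does not show that the arms were alike.

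Most member regions were not listed in every library and stayed outside the main test. Of these 700 regions (77.9% of 899), 319 were listed in 1 library. More B2_minus than control libraries listed 322 of the 700 (46%), and more control libraries 283 (40.4%), whereas over all 541373 regions outside the test the shares were 31.6% and 57.5%. The Ad_Cre control libraries listed 254160 to 281141 peaks and the Ad_Cre B2_minus libraries 207948 to 235220. With Ad_Cont the diets overlapped, at 200698 to 265511 peaks in control and 206940 to 225584 in B2_minus. Genes without a tested region were Gstt4, Sult1c1, Sult2a2 to Sult2a6, Sult3a1, Sult4a1, Sult6b1, Ugt2a1 and Ugt2a2. Outside the Ugt1a cluster, Ugt2b35 had the most regions (47, 11 tested).

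Untested peaks were also counted by the number of libraries that list them, a count chosen after the data were seen and given without a test. At least 5 of 6 B2_minus and at most 1 of 6 control libraries listed 7 of the 899 member regions (0.779%, against 0.196% of all regions): 3 in the Ugt1a cluster and 1 each near Ugt2b5, Ugt2b38, Sult1b1 and Ugt3a1. The reverse held at 1 region (0.111%, against 0.245%), inside Sult1e1. Counts in these peaks ran from 6 to 17 tags.

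Other genes of the pathway, from a list of 49, had 516 tested regions, 15 higher (2.91%, against 2.45% of all regions) and 5 lower (0.969%, against 3.33%). Enzymes and carriers of UDP-glucuronate supply had 25 tested regions and no call. In sulfate donor supply, 3 of 45 regions rose and 0 fell: 2 near Papss2, the PAPS synthase of liver (0.29 and 0.62), and 1 at the sulfate carrier Slc26a1 (0.33). In glutathione supply, 1 of 96 rose, near Gclc, the catalytic subunit of the rate-limiting synthesis enzyme (0.67, edgeR adjusted p = 0.0157), and 1 fell, at the glutathione reductase Gsr (-0.58, adjusted p = 0.0136). In other conjugation, 1 of 68 regions rose, at the N-acetyltransferase Nat2 (0.36), and 1 fell. In export, 1 of 79 rose, at Abcc3, the basolateral conjugate exporter (0.33).

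Regulators had 203 tested regions, 9 higher and 3 lower, beside 2.45% of all regions higher and 3.33% lower. A region in Arnt, the partner of AhR, rose from 50.1 ± 3.57 (SD, n = 6) to 63.8 ± 5.79 (SD, n = 6), a log2 fold change of 0.34 (edgeR adjusted p = 0.00212). Regions also rose near Nfe2l2 (0.40), Keap1, the NRF2 repressor (0.25 and 0.27), Nr1i2 (0.35) and Rxra (0.24). Hnf4a had 2 higher and 2 lower regions, and the bile acid receptor Nr1h4 1 of each.

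Some marker regions of cell types were also called, beside 2.45% of all regions higher and 3.33% lower. Hnf4a is in both the hepatocyte marker list and the regulator list, so its called regions count in both. Of 98 tested regions of hepatocyte markers 7 were higher and 3 lower, while stellate markers had 0 higher and 3 lower of 23, Kupffer markers 0 and 1 of 9, cholangiocyte markers 0 and 5 of 32, and endothelial markers 3 and 3 of 45. Summed promoter tags of the 6 hepatocyte markers with a window ranged from 312 to 330 in control and 334 to 356 in B2_minus with Ad_Cont, and from 297 to 303 and 331 to 351 with Ad_Cre. The sums of 4 stellate markers ranged from 72.9 to 82.1 and 55.6 to 60.8 with Ad_Cont, and from 65.7 to 77.6 and 58.9 to 62.3 with Ad_Cre. Those of 4 endothelial markers (Stab2 at 0) ranged from 31.3 to 35.8 and 22.1 to 27.8, then 27.2 to 40.8 and 23.9 to 32.3, in the same order. Those of 3 cholangiocyte markers (Krt7 at 0) ranged from 27.9 to 43.1 and 19.7 to 35.2, then 28.8 to 50.8 and 16.7 to 26.3. Only 2 of the 4 stellate, 2 of the 4 endothelial and 1 of the 3 cholangiocyte promoters were listed in all 12 libraries. An unlisted promoter is not a measured 0, so these sums also depend on which libraries listed a peak. The part of the cell type markers in the conjugation gene result was not tested. In bulk libraries, fewer cells of a type and less open chromatin per cell cannot be told apart.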

How the data were processed

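ATAC-seq peak lists of 12 mouse hepatocyte libraries (4 groups of 3, grouped by sample title) were used; the HepG2 libraries of the series were not used here. The deposited value is read as a tag count per peak, from its whole numbers, nearly always over 200 bp; no header describes it, and replicates vary less than Poisson counts would. Bowtie2, HOMER and mm10 are named per the submitters' processing notes; how the authors set them is not stated in any source at hand. No tag outside a listed peak was seen. Listed tags and peaks per library, given in the results, limit precision.

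Peaks overlapping by 1 bp were merged, the highest count per library was taken, and each region took the closest body of a protein-coding gene of GRCm38.p6 within 50 kb, ties kept (4 tested member regions tie with another gene: Pomt2 or Slx1b). At most 0.162% of a library's peaks, off the named chromosomes, were left out. Regions listed in all 12 libraries were fitted in one model with edgeR 4.0.16 (TMM, glmQLFit without the Poisson bound). The threshold was 0.05, with Benjamini-Hochberg adjustment over all tested regions. The fit was also run on simulated counts whose variance was set below Poisson by the same factor at every region. That run does not show how well the calls hold for the deposited values. A region value is the highest count of any 1 peak in it, nearly always over 200 bp. Wide regions can take that maximum over more peaks, and how well levels compare between genes was not tested.

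The members, lists, markers, motifs and the averaged contrast were chosen with earlier results of these data known, and the unbounded variance was adopted after results were seen. Genes named are those with a called region, the strongest region per family, regions listed in one diet alone, genes with the most and with no regions, and the uncalled regions of lowest p, one per gene; other start-site regions and genes were chosen after their values were seen. The result of 1 listed pathway gene is not reported here. Alternatives were the bounded edgeR fit, DESeq2 1.42.0, limma 3.58.1 on log2(scaled tags + 1), 2 other scalings, other filters, region values, merging and gene distance, a replicate block and each library left out.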

Additional observations from a re-analysis of the deposited data

How the results depend on the processing

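The averaged diet count of 22 member regions became 3 with edgeR bounded at Poisson variance, 0 with DESeq2 (its adjusted p was not given for 54 of 199), 41 with listed-tag scaling, 10 with summed peaks and 12 with at least 15 tags in every library (101 tested). With regions listed in 3 or more libraries it was 18 (485 tested), 17 higher and 1 lower (94.4% higher against 77.3%). The lower calls of Gsto1 (edgeR adjusted p = 0.0767), Sult2a1 (0.0712), Sult2b1 (0.13), the Ugt1a cluster (0.131) and Gstt2 (0.18) were lost. Over all 252554 regions of that fit, 3275 were called higher and 889 lower. With Ad_Cont the count of 2 became 0, 0, 4, 0 and 1 in the same order and 0 when regions listed in 3 or more libraries were fitted. With Ad_Cre the count of 5 became 0, 0, 22, 0 and 1, 0 for regions listed in 3 or more libraries, and 2 with limma. Over all 101575 regions the averaged count was 996 with bounded edgeR, 45 with DESeq2, 11751 with listed-tag scaling and 1469 with summed peaks. The cause of these shifts was not tested. Leaving out 1 library gave 14 to 21 in the averaged comparison (14 without the first B2_minus Ad_Cont library), 1 to 2 with Ad_Cont (1 without the second library of either diet) and 0 to 6 with Ad_Cre (3 without its first control library). Without each library in turn, 11 of the 22 averaged calls held throughout, 1 of 2 with Ad_Cont (Gstm3) and 0 of 5 with Ad_Cre. The averaged calls lost in some of these fits were those of Gstt2 (highest adjusted p 0.0503, without the second B2_minus Ad_Cont library), the Sult1d1 region near the start (0.102, without the first B2_minus Ad_Cont library), Sult2b1 (0.0674, in 2 fits: without the first B2_minus Ad_Cont or the second B2_minus Ad_Cre library), Gstm2 (0.0719, in 3 fits), upstream Sult1e1 (0.0718, in 3), the region inside Gstm3 (0.147, in 5), the second Gstz1 region (0.0843, in 5), the other Sult1d1 region (0.118, in 5), Ugt2b1 (0.217, in 7), Gsto2 (0.183, in 8) and the other Sult1e1 region (0.186, in 9). None of the 22 called regions changed sign in the alternatives that tested it, and the Ad and interaction counts of members were 0 in each. Uncalled regions were not followed region by region.

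Whether the replicate numbers pair the libraries was not settled. The 18 same-number pairs had correlations of -0.016 to 0.012, 0 of them over 0.1, and 6 of 12 libraries correlated best with their own number. Same-number pairs of one diet, across the Ad arms, were all positive. They were 0.012, 0.0098 and 0.0080 in control and 0.0013, 0.0085 and 0.0060 in B2_minus. Whether both arms came from the same preparations was not tested. If they did, the 6 libraries of a diet are not independent. With the replicate number as a block the counts were 21, 2 and 5. That block joined all 4 groups by number and was not set within a diet. Weak regions, near the lowest listed counts of 6 to 8, are limited by depth, and the filter leaves out regions unlisted in any library.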

Other observations

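Several further conjugation gene regions had low unadjusted p-values without passing the edgeR threshold over all regions. In the Ugt1a cluster a region inside 7 gene bodies had 15.7 ± 5.20 scaled tags in control (SD, n = 6) and 21.5 ± 4.34 in B2_minus (SD, n = 6), a log2 fold change of 0.50 with an edgeR adjusted p of 0.0521. Next came regions near Gstm2 (0.55, adjusted p = 0.0531), Gstm1 (0.47, 0.0548), Gstm7 (0.44, 0.0646), Ugt2b5 (0.30, 0.071), Ugt2b36 (0.48, 0.085) and Ugt2a3 (0.38, 0.0851). These were all positive, and the 10 regions of this kind, one per gene, reached down to Gstt2 (0.16, adjusted p = 0.129).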
